A study of Oryza sativa with 12 samples.

Results

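The 100 most abundant endosperm-high genes of developing rice (Oryza sativa) seed were described from RNA sequencing of 4 dissected tissues. The endosperm is the storage tissue inside the seed, the aleurone its outer cell layer, the pericarp the maternal fruit wall and the embryo the future plant. Each tissue had 3 libraries, which the design text calls biological replicates, all from untreated plants grown in the field. No source used here names the cultivar or the seed stage, or says whether the 4 tissues were taken from the same seeds. The 100 genes were taken from 37878 genes in all. They had to lack a symbol, to have at least 50 counts in each of the 3 endosperm libraries, and to have an endosperm mean at least 5 times the mean of each other tissue, in CPM, the gene's counts scaled to a common total of gene counts per library. Both thresholds were passed by 180 genes, and the 100 with the highest endosperm mean were kept. Endosperm level and the contrast of endosperm with the other tissues therefore chose the genes, so these values are described without a test.

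The central part of a cereal grain, the starchy endosperm, fills with starch and storage protein during seed development. In rice these proteins are mainly glutelins and prolamins, and their genes form multigene families whose members can lie side by side. The aleurone surrounds the starchy endosperm, descends from the same fertilized cell and stores oil and minerals rather than starch granules. The table gave neither a symbol nor a description for any of the 100 genes, and the reference table of gene names matched 0 of them. The genes are therefore known here by identifier, position and counts, and no function is attached to them. Coordinates are as deposited, and no source used here names their genome build.

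Total gene counts ran from 6367350 to 24412371 in endosperm, from 5689112 to 16005961 in aleurone, from 2879282 to 6301388 in pericarp and from 14205388 to 18169845 in embryo libraries. A floor of 3 counts over a tissue's libraries equals 0.0590 CPM in endosperm, 0.0856 CPM for aleurone, 0.222 CPM for pericarp and 0.0623 CPM for embryo, and it covers counting error only. WAXY, a granule-bound enzyme that makes the amylose of starch, was the 1 planned starch gene of 16 matched by symbol, and it stood at 18749 to 37209 CPM in endosperm, 922 to 2677 in aleurone, 715 to 3059 in pericarp and 0.951 to 25.3 in embryo. The summed level of 6 embryo genes was 0 to 4.24 CPM in endosperm, 0 to 31.6 in aleurone, 0 to 245 in pericarp and 524 to 607 in embryo. In endosperm 5 of them (OSH15, OSH71, WOX4, CYCB2-1 and SPL12) were at 0 in every library. The summed level of 5 aleurone and oil body genes was 177 to 393 CPM in endosperm, 3625 to 5626 in aleurone, 2967 to 6962 in pericarp and 2624 to 5379 in embryo. Their sum thus did not separate aleurone from pericarp or embryo. Of the 5, PXG alone was highest in endosperm, with means of 91.4 CPM there, 32.6 in aleurone, 0 in pericarp and 3.06 in embryo. The summed level of 3 pericarp genes was 0 to 25.9 CPM in endosperm, 263 to 526 in aleurone, 969 to 3803 in pericarp and 114 to 215 in embryo. Of the 3, CHI and SWEET11 had their highest mean in pericarp, while CHS1 averaged 24.8 CPM in pericarp and 26.0 in embryo.

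The word abundant held for some of the 100 genes and not for others. The first of them was the most abundant gene of the endosperm, the second ranked 11 among all genes, and the last ranked 1442. Of the 100 most abundant endosperm genes 32 belonged to the set, 67 fell short of 5-fold over another tissue, and the remaining 1 was WAXY, left out because it has a symbol. ATG8B was the other gene with a symbol that passed both thresholds. Within the set 23 genes had at least 1000 CPM in endosperm, 50 had 100 to 1000 CPM, and 27 had less than 100 CPM, with a median of 177 CPM and a range of 56.2 to 87621. The fold over the highest other tissue had a median of 8.88 over the 96 genes with a count outside the endosperm. It was below 10 for 54 of them and reached 278 in BGIOSGA022269.

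The 100 genes held 20.9%, 16.9% and 21.2% of the counts in endosperm libraries 2, 3 and 4. They held 1.67%, 2.89% and 3.39% in aleurone libraries 1, 2 and 3, and 5.67%, 1.26% and 0.840% in pericarp libraries 1, 3 and 4. In embryo libraries 2, 3 and 4 the share was 0.2004%, 0.180% and 0.202%. The mean share was 19.7% ± 2.38 for endosperm, 2.65% ± 0.881 for aleurone, 2.59% ± 2.67 for pericarp and 0.194% ± 0.0126 for embryo (SD, n = 3 libraries each). The pericarp mean rested on pericarp 1, and the other pericarp libraries lay below all 3 aleurone libraries.

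A single gene supplied 44.5% of the set's endosperm counts. The first 10 genes supplied 76.5%, and the 23 genes at 1000 CPM or more supplied 91.1%. The 8 genes of a cluster on chromosome 7 held 4.001% ± 0.624 of the endosperm counts (SD, n = 3 libraries).

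**Figure D1:**
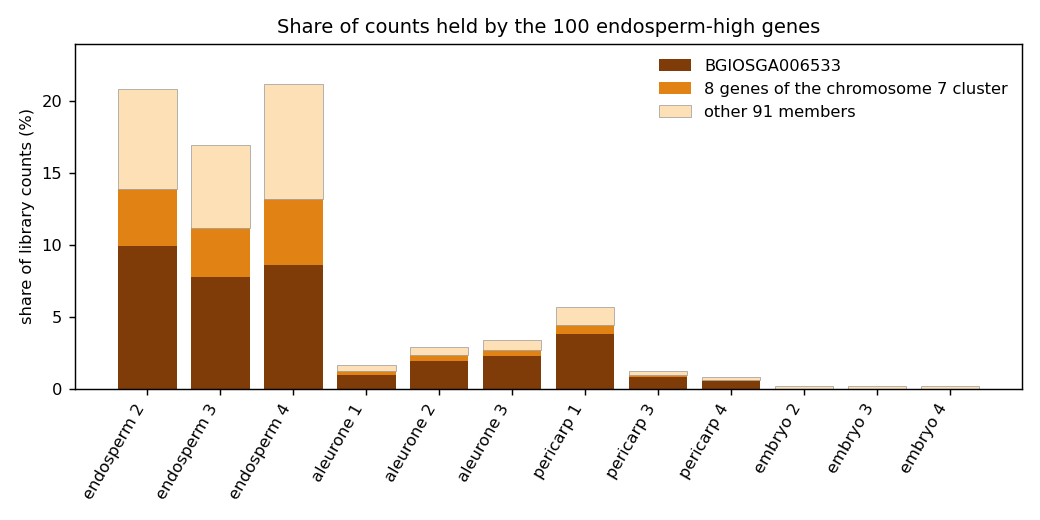
Share of each library's gene counts in percent, stacked into BGIOSGA006533, the 8 genes of the chromosome 7 cluster and the other 91 genes, for the 12 libraries grouped by tissue. Endosperm bars reach 16.9% to 21.2%, embryo bars 0.180% to 0.202%, and the pericarp 1 bar at 5.67% stands above the aleurone bars.

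BGIOSGA006533 (chromosome 2, 16044837 to 16046638, minus strand) was the most abundant gene. It had 99248, 77725 and 85890 CPM in endosperm libraries 2, 3 and 4. In aleurone libraries 1, 2 and 3 it had 9503, 18970 and 22615 CPM. The pericarp libraries 1, 3 and 4 had 38073, 8406 and 5367 CPM, and the embryo libraries 18.2, 21.9 and 8.05 CPM. Every endosperm library was above every other library, and pericarp 1 was the highest of the other tissues. With 5.07-fold over the pericarp mean, this gene was also the one nearest to the fold threshold. It alone was 8.76% ± 1.09 of the endosperm counts (SD, n = 3 libraries). Per kb of gene region, introns included, it was first within the set at 48624 ± 6029 CPM per kb (SD, n = 3 libraries).

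The next most abundant genes on other chromosomes were BGIOSGA020506 and BGIOSGA020688 on chromosome 6, BGIOSGA027135 on chromosome 8, BGIOSGA004052 on chromosome 1 and BGIOSGA037214 on chromosome 12. BGIOSGA020506 (32596001 to 32603277) had 10054, 7779 and 11743 CPM in endosperm, 732, 1092 and 1426 in aleurone, 2220, 544 and 2.43 in pericarp and 302, 249 and 186 in embryo. It kept a level above 100 CPM in every embryo library, whereas BGIOSGA006533, the more abundant gene in endosperm, was at most at 21.9 CPM there. BGIOSGA020688 (29868590 to 29873912) had 6539, 5585 and 6986 CPM in endosperm, 107, 18.5 and 225 in aleurone, 600, 0.918 and 87.9 in pericarp and 2.31, 0.352 and 1.90 in embryo. Its 3 endosperm values had a coefficient of variation of 11.2%, while its aleurone and pericarp values differed widely between libraries of the same tissue.

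BGIOSGA027135 (16746477 to 16750552) had 6138, 4958 and 6946 CPM in endosperm, 241, 302 and 323 in aleurone, 1020, 46.1 and 132 in pericarp and 67.2, 49.5 and 59.96 in embryo. BGIOSGA004052 (28487624 to 28491651) had 4691, 4342 and 5527 CPM in endosperm, 371, 590 and 538 in aleurone, 1595, 466 and 244 in pericarp and 21.5, 19.6 and 14.8 in embryo. BGIOSGA037214 (7419417 to 7424749) had 4072, 3207 and 4898 CPM in endosperm, 273, 316 and 345 in aleurone, 376, 113 and 145 in pericarp and 74.9, 82.0 and 81.9 in embryo. The 3 genes had in common that their 3 aleurone and 3 embryo values lay close together and that pericarp 1 was the highest pericarp library.

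Levels of different genes were compared per kb of gene region, a length that includes introns. Only genes of the set were ranked on this scale. After BGIOSGA006533, the next 6 of them in endosperm were all from the chromosome 7 cluster. They were BGIOSGA024609 at 24755 ± 4292 CPM per kb, BGIOSGA024611 at 18037 ± 3765, BGIOSGA024607 at 11933 ± 1649, BGIOSGA024601 at 10159 ± 1570, BGIOSGA024602 at 8299 ± 2059 and BGIOSGA024610 at 5063 ± 1678 (SD, n = 3 libraries). BGIOSGA024601 and BGIOSGA024602 differed by less than the SD of BGIOSGA024602. These cluster genes have short regions, so they ranked at least as high per kb as by CPM.

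Position was not used to choose the genes. Neighbours at most 100 kb apart were joined, which placed 24 of the 100 genes in 9 clusters. The 8-gene cluster was on chromosome 7, and the other 8 clusters were pairs. The large cluster held 5 genes at a gap of 50 kb and 4 when genes were chosen at 10-fold, and kept 8 at a gap of 200 kb. Chromosome 7 held 16 of the 100 genes, against 7.39% of all genes in the table and 8.39% of the genes with 50 counts in every endosperm library. Chromosome 6 held 13 of the 100 genes, against 8.35% and 7.12%. Chromosome 2 held 6, against 10.7% and 12.9%. Those 6 genes nevertheless held 8.96% of the endosperm counts because of BGIOSGA006533. The genes of the set on chromosome 7 held 4.31% and those on chromosome 6 held 1.97%.

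The chromosome 7 cluster ran from 6248365 to 6504931, a span of 257 kb, with all 8 genes on the minus strand. Its genes were BGIOSGA024615 (6248365 to 6251691), BGIOSGA024613 (6342458 to 6342922), BGIOSGA024611 (6347645 to 6348127), BGIOSGA024610 (6382407 to 6382832), BGIOSGA024609 (6386493 to 6386993), BGIOSGA024607 (6405999 to 6406472), BGIOSGA024602 (6487990 to 6488466) and BGIOSGA024601 (6504452 to 6504931). The regions of 7 of them were 426 to 501 bases long. The first gene, BGIOSGA024615, differed from the rest with a region of 3327 bases.

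BGIOSGA024609 was the highest of the cluster, with 13945, 9946 and 13316 CPM in endosperm libraries 2, 3 and 4. It had 648, 910 and 1202 CPM in aleurone, 1650, 444 and 81.6 in pericarp and 0.605, 0.352 and 0.190 in embryo. BGIOSGA024611 had 8665, 6918 and 10554 CPM in endosperm, 444, 876 and 869 in aleurone, 1465, 128 and 83.7 in pericarp and 3.69, 0.422 and 0.254 in embryo. For both, every endosperm library was above every library of another tissue. Embryo 2 had the highest embryo level of both, 3.69 CPM for BGIOSGA024611.

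BGIOSGA024607 had 5243, 5168 and 6558 CPM in endosperm, 713, 1032 and 1053 in aleurone, 1346, 365 and 284 in pericarp and 0.275, 0.493 and 0.127 in embryo. BGIOSGA024601 had 4007, 5288 and 5334 CPM in endosperm, 366, 951 and 759 in aleurone, 1071, 163 and 2.78 in pericarp and 0.275, 0.0704 and 0.190 in embryo. BGIOSGA024602 had 3371, 3412 and 5093 CPM in endosperm, 62.7, 284 and 203 in aleurone, 289, 31.7 and 1.04 in pericarp and 0.110, 0.282 and 0.254 in embryo. In all 3 genes pericarp 1 was the highest and pericarp 4 the lowest pericarp library.

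BGIOSGA024610 averaged 2157 ± 715 CPM in the endosperm libraries, 165 ± 77.3 in aleurone, 110 ± 190 in pericarp and 0.102 ± 0.0290 in the embryo libraries. BGIOSGA024613 averaged 2059 ± 415 CPM in the endosperm libraries, 41.5 ± 19.5 in aleurone, 29.6 ± 50.3 in pericarp and 0.0653 ± 0.0710 in the embryo libraries (SD, n = 3 libraries each). BGIOSGA024615 was the exception in level, at 191 ± 83.5 CPM in the endosperm libraries, 24.9 ± 8.38 in aleurone, 13.5 ± 23.1 in pericarp and 5.03 ± 2.56 in the embryo libraries. It was the lowest of the 8 in endosperm and the highest of the 8 in embryo. From the highest to the lowest of the 8 genes, endosperm levels differed 430-fold in CPM per kb of gene region.

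Between the first and the last gene of the cluster lay 10 genes outside the set. Of these 6 had no count in endosperm, and 5 had none in any of the 12 libraries. The most abundant of the 10 was BGIOSGA024604 (6463329 to 6463811), a gene of 483 bases on the same strand, looked up after its values were seen. It had 8343, 15364 and 10847 CPM in endosperm, 1560, 5316 and 4334 in aleurone, 7193, 1248 and 654 in pericarp and 0.605, 0.422 and 0.444 in embryo. Its endosperm mean was 3.08-fold above the aleurone mean, below the threshold of 5. Per kb of gene region that mean was 23847 CPM, between those of BGIOSGA024609 and BGIOSGA024611. BGIOSGA024593 (6820342 to 6820782), also of the set and with 441 bases, lay farther along the same strand than the 100 kb that joined a cluster. Where these genes share near-identical stretches, the authors' counting could have divided reads between them; how alike they are was not analysed here, since no sequence of this build was used.

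**Figure D2:**
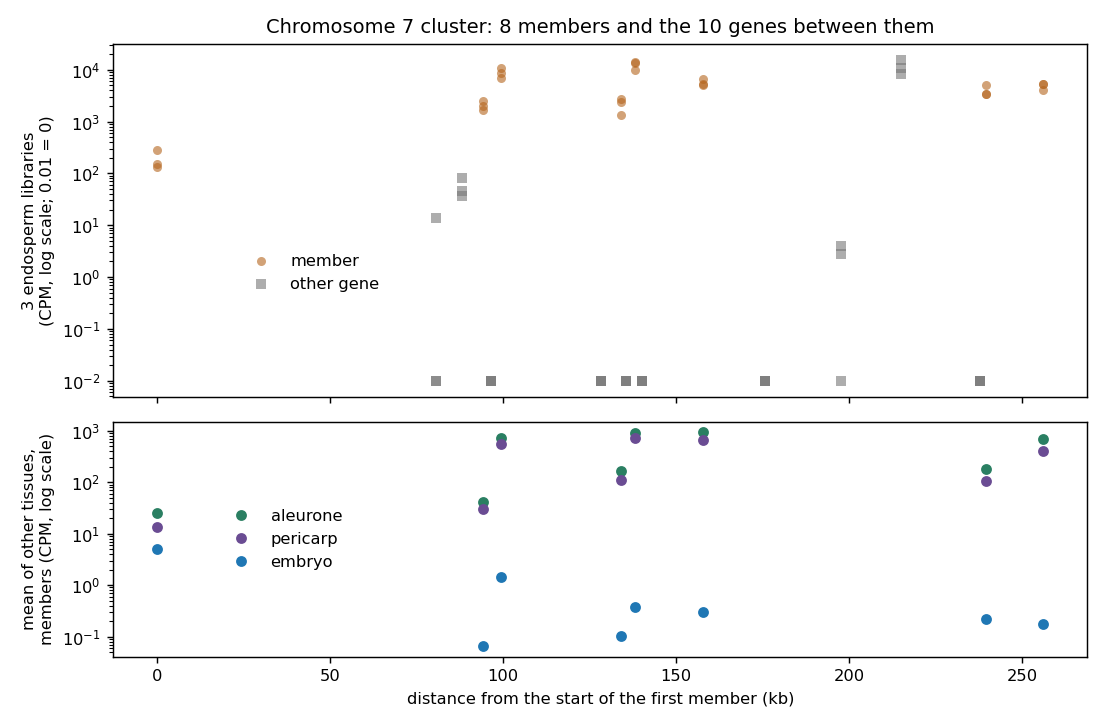
Levels in CPM on a log scale against distance in kb from the start of the first gene of the chromosome 7 cluster. The upper panel shows each of the 3 endosperm libraries for the 8 genes (circles) and the 10 genes between them (squares, with 0 drawn at 0.01), and the lower panel the means of the 8 genes in aleurone, pericarp and embryo. Of the 8 genes 7 lie above 1000 CPM in every endosperm library, as does 1 square, BGIOSGA024604, and the embryo means of these 7 lie between 0.0653 and 1.45.

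The 8 pairs held 16 genes, and 5 pairs had both genes on the same strand. In 3 pairs no other gene of the table lay between. BGIOSGA003496 (15994869 to 16001698) and BGIOSGA003497 (16003864 to 16007589) on chromosome 1 averaged 395 ± 137 and 708 ± 137 CPM in endosperm. BGIOSGA018408 (12198695 to 12199490) and BGIOSGA018407 (12222029 to 12225216) on chromosome 5 averaged 300 ± 134 and 700 ± 265 CPM (SD, n = 3 libraries each). In both chromosome 5 genes endosperm 3 was the highest and endosperm 4 the lowest library, whereas endosperm 3 was the lowest library for 68 of the 100 genes. BGIOSGA027134 (16751471 to 16752133) lies 0.918 kb from BGIOSGA027135 on chromosome 8. It had 176, 98.9 and 240 CPM in endosperm, 0 in every aleurone library, 74.1, 0 and 0 in pericarp and 0 in every embryo library, whereas its neighbour was counted in all 12 libraries.

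The gene regions of the 100 genes had a median length close to that of all counted genes and below that of the genes counted well in endosperm. The median region was 2629 bases with quartiles of 1490 and 4040, against 2606 bases with quartiles of 1377 and 4197 over the 21643 genes with a count and 3330 bases with quartiles of 2035 and 5306 over the 4341 genes with 50 counts in every endosperm library. Regions shorter than 600 bases were found in 13 of the 100 genes, against 8.67% of the counted genes and 4.75% of the genes with 50 counts. Among the 23 genes at 1000 CPM or more 9 had such short regions (39.1%), and 7 of these 9 were in the chromosome 7 cluster.

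Outside the endosperm the set divided by level. All 23 genes at 1000 CPM or more were counted in every aleurone library, 22 in every pericarp library and 20 in every embryo library. Of the 50 genes from 100 to 1000 CPM 22, 2 and 17 were counted in every aleurone, pericarp and embryo library. Of the 27 genes below 100 CPM it was 1, 0 and 3. No count in any library of the tissue was found for 10 of the 100 genes in aleurone, 33 in pericarp and 24 in embryo. Only 19 genes were counted in all 12 libraries.

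The genes missing from a library were many, and pericarp had most. At 0 were 23, 39 and 28 of the 100 genes in aleurone libraries 1, 2 and 3, 43, 65 and 61 in pericarp libraries 1, 3 and 4, and 39, 48 and 40 in embryo libraries 2, 3 and 4. Pericarp libraries also held few intermediate levels. Between 1 and 10 CPM there were 20, 5 and 12 of the genes in aleurone, 0, 0 and 3 in pericarp and 18, 10 and 18 in embryo. The same gap was present over all counted genes, of which 2.41%, 0.912% and 1.52% lay between 1 and 10 CPM in the pericarp libraries, against 30.5%, 6.97% and 27.8% in the aleurone libraries and 30.0%, 22.5% and 29.5% in the embryo libraries. In endosperm libraries 2, 3 and 4 it was 42.9%, 8.23% and 43.1%, so endosperm 3 also held few such genes. Whether transcripts were lost from any of these libraries was not tested.

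**Figure D3:**
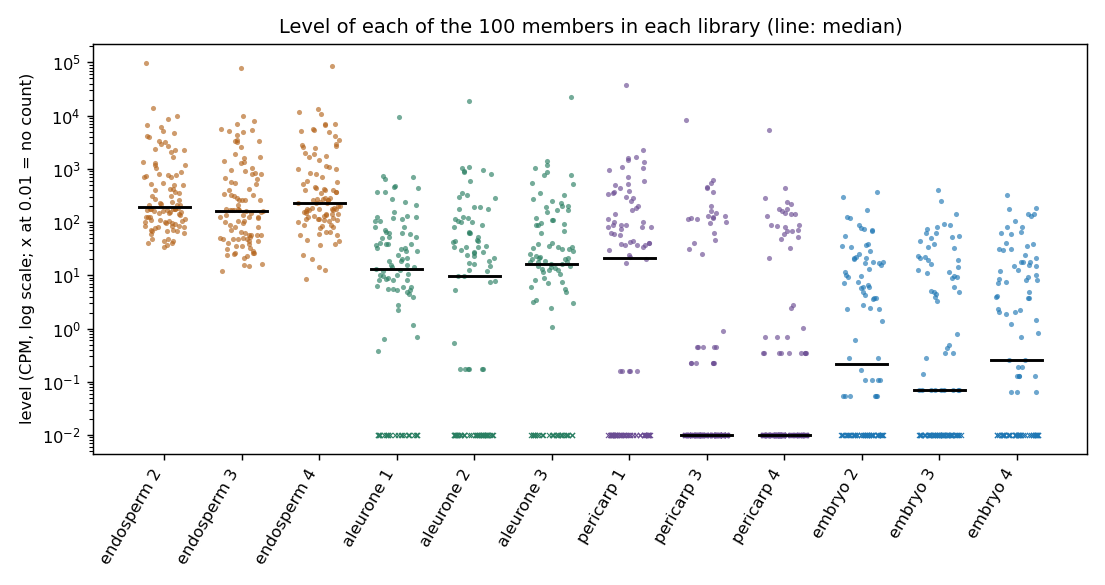
Level of each of the 100 genes in each of the 12 libraries, in CPM on a log scale, with crosses at 0.01 for genes without a count and a line at the median. Medians in pericarp 3 and pericarp 4 are at 0, where 65 and 61 genes had no count, and pericarp libraries show a gap between 1 and 10 CPM that holds 0 to 3 genes.

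Each gene was set against its own endosperm mean. Over the 23 genes at 1000 CPM or more, the median ratio was 0.0649, 0.0947 and 0.0969 in aleurone libraries 1, 2 and 3, 0.189, 0.0334 and 0.0230 in pericarp libraries 1, 3 and 4, and 0.000363, 0.000250 and 0.000723 in embryo libraries 2, 3 and 4. Over all 100 genes, the median ratio of the tissue mean to the endosperm mean by library totals was 0.0658 in aleurone, 0.0425 in pericarp and 0.00193 in embryo, and with TMM scaling it was 0.0398, 0.0139 and 0.000687. WAXY, which is not in the set, had ratios of 0.0324, 0.0941 and 0.0661 in aleurone, 0.108, 0.0602 and 0.0252 in pericarp and 0.000136, 0.000889 and 0.0000334 in embryo. WAXY and the median of the 23 genes were both highest in pericarp 1 among all libraries outside the endosperm, and both were lowest of the aleurone libraries in aleurone 1. The median over all 100 genes did not follow this order, at 0.0545, 0.0269 and 0.0630 in aleurone libraries 1, 2 and 3, 0.0456, 0 and 0 in pericarp libraries 1, 3 and 4, and 0.000156, 0.0000284 and 0.000552 in embryo libraries 2, 3 and 4. The part of starchy endosperm RNA in these levels was not tested. In bulk tissue, fewer cells of a type and less RNA per cell cannot be told apart.

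The ratios differed between genes within a library. Over the 23 genes they ran from 0.0113 to 0.152 in aleurone 1, from 0.0426 to 0.435 in pericarp 1 and from 0.0000223 to 0.127 in embryo 2. Means above 10 CPM in embryo were reached by 29 of the 100 genes and above 100 CPM by 5. None of the 8 genes of the chromosome 7 cluster was among the 29, while in aleurone and in pericarp all 8 were above 10 CPM and 6 were above 100 CPM. Of the 96 genes with a count outside the endosperm, the second-highest tissue was the aleurone for 53, the pericarp for 28 and the embryo for 15, and for the 23 most abundant genes it was the aleurone for 14 and the pericarp for 9.

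The order of the 100 genes by level was more alike between endosperm and aleurone or pericarp than between endosperm and embryo. Spearman's rho over the 100 genes was 0.673 to 0.808 for pairs of an endosperm and an aleurone library, 0.652 to 0.802 for endosperm and pericarp, and 0.238 to 0.535 for endosperm and embryo. Between endosperm libraries it was 0.745 to 0.933 and between embryo libraries 0.708 to 0.843. These values describe genes that were chosen for their endosperm level, and many are tied at 0.

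In 4 genes no count was found in any of the 9 libraries outside the endosperm. BGIOSGA034482 (chromosome 11, 2195731 to 2198333) had 98.9, 57.6 and 128 CPM in endosperm, at least 1109-fold above aleurone, 428-fold above pericarp and 1524-fold above embryo when these are set to the floor of 3 counts. BGIOSGA011586 (chromosome 3, 954097 to 955621) had 83.5, 124 and 23.7 CPM, at least 900-fold, 348-fold and 1237-fold above the same floors. Both were among the less abundant genes of the set. They differed in which endosperm library was highest.

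The choice of genes used endosperm against each other tissue and put an upper limit on each other mean, but did not use the contrasts among aleurone, pericarp and embryo. These were tested across all genes. A gene was called at an adjusted p below 0.05 (edgeR's quasi-likelihood test, Benjamini-Hochberg over 16347 genes) with a fold of at least 2. All 100 genes passed the filter on low counts. That filter looks at all 12 libraries, and 3 libraries with enough counts suffice, which each of the 100 genes had in endosperm. The contrasts with embryo share the embryo libraries and are given side by side. The spread between libraries of a tissue was wide, with a common dispersion of 3.49.

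In aleurone against embryo 12 of the 100 genes were called higher and 0 lower, where 0.447% of all genes tested were called, 0.428% higher and 0.0184% lower. At an unadjusted p below 0.05 there were 53 of the 100 genes, against 2349 of all 16347 genes. DESeq2 called 44 higher and 4 lower, where 621 of all 16347 genes were called higher and 748 lower. The median log2 fold change was 3.02 over the 100 genes and -0.39 over all genes. Scaling by library totals alone moved both medians, to 2.38 and -0.98, and the count of called genes stayed at 12. These medians include genes that passed the filter only through other libraries, and 6 of the 100 genes had no count in aleurone or embryo. In a fit of only the aleurone and embryo libraries 66 of the 100 genes passed the filter, of which 18 were called higher and 0 lower. In that fit 2.56% of all genes were called, 1.11% higher and 1.45% lower. Of the 12 genes 11 had at least 1000 CPM in endosperm and 5 were in the chromosome 7 cluster.

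By fitted log2 fold change, BGIOSGA024601 of the cluster came first among the genes called between aleurone and embryo, and its standard error covers its lead over the next. It averaged 692 ± 298 CPM in aleurone and 0.179 ± 0.103 CPM in embryo, a log2 fold change of 12.33 ± 1.95 (SE, edgeR adjusted p 0.0123). BGIOSGA024607 averaged 933 ± 191 CPM in aleurone and 0.298 ± 0.184 CPM in embryo (log2 fold change 12.12 ± 1.13, edgeR adjusted p 0.000277). BGIOSGA007750 (chromosome 2, 6631874 to 6633603) had 79.3, 116 and 86.7 CPM in aleurone, against 1 count in all embryo libraries together. Its ratio of summed counts was 4241, with an exact 95% interval of 761 to 167570 that covers counting error only (edgeR adjusted p 0.000911). In these 3 genes every aleurone library was above every embryo library. BGIOSGA006533 was also called, at 17029 ± 6768 CPM in aleurone and 16.03 ± 7.16 CPM in embryo (log2 fold change 10.63 ± 1.11, edgeR adjusted p 0.000583). When each of the 12 libraries was left out in turn, 5 of the 12 genes kept their call every time. These were BGIOSGA006533, BGIOSGA007750, BGIOSGA024593, BGIOSGA024607 and BGIOSGA024609. The number called ran from 6 without any single embryo library to 18 without pericarp 1. Over all genes 35 of 17449, 36 of 17984 and 33 of 17389 were called without embryo 2, 3 and 4. Without pericarp 1 it was 108 of 18317. Under limma voom 3 of the 12 kept their call, namely BGIOSGA007750, BGIOSGA021197 and BGIOSGA024593. The call ended there for BGIOSGA006533 (adjusted p 0.972), BGIOSGA024609 (0.962), BGIOSGA024607 (0.827), BGIOSGA024601 (0.775) and 5 others, while the log2 fold changes of these 4 stayed between 10.65 and 12.07.

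In pericarp against embryo 16 of the 100 genes were called higher and 3 lower, where 2.79% of all genes tested were called, 0.606% higher and 2.18% lower. With library totals alone the split over all genes was 92 higher and 194 lower, against 99 higher and 357 lower with the TMM factors used here, while the set kept 16 higher and 3 lower. Other alternatives gave another split of the 100 genes. DESeq2 called 29 higher and 16 lower, where 501 of all 16347 genes were called higher and 4715 lower. Limma voom called 7 higher and 9 lower, where 184 of all 16347 genes were called higher and 7038 lower. Without pericarp 1, edgeR called 15 higher and 7 lower, where 101 of all 18317 genes were called higher and 824 lower. In a fit of only the pericarp and embryo libraries 46 of the 100 genes passed the filter, of which 12 were called higher and 8 lower. In that fit 42.1% of all genes were called, 0.845% higher and 41.3% lower. The other 54 genes did not pass it without the endosperm and aleurone libraries, and 13 of the 100 had no count in pericarp or embryo, so no median fold change over the 100 is given for this contrast. Of the 19 genes called in the main fit 15 passed the filter on these libraries alone, and all 15 kept their call. BGIOSGA003497, BGIOSGA018407, BGIOSGA018408 and BGIOSGA024613, all called higher, passed the filter only through the endosperm and aleurone libraries. Of the 16 genes called higher, 6 were in the chromosome 7 cluster and 12 had at least 1000 CPM in endosperm.

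BGIOSGA007750 had 444, 113 and 144 CPM in pericarp, against 1 count over the 3 embryo libraries, a ratio of summed counts of 13184 with an exact 95% interval of 2365 to 520870 (edgeR adjusted p 0.000922). BGIOSGA024601 averaged 412 ± 576 CPM in pericarp and 0.179 ± 0.103 CPM in embryo (log2 fold change 10.92 ± 1.86, edgeR adjusted p 0.0110). BGIOSGA003497 of the chromosome 1 pair had 204, 0 and 176 CPM in pericarp and 0.110, 0 and 0 CPM in embryo (edgeR adjusted p 0.0298). Its groups overlapped, since pericarp 3 had no count, and the pericarp and embryo libraries alone did not let it pass the filter. Every pericarp library was above every embryo library for BGIOSGA007750 and BGIOSGA024601.

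The 3 genes called lower in pericarp than in embryo were low or absent in every pericarp library. BGIOSGA023998 (chromosome 7, 21907572 to 21910642) had 0 CPM in all pericarp libraries and 12.9, 32.0 and 21.0 CPM in embryo, at least 99.3-fold higher in embryo than the pericarp floor of 3 counts (edgeR adjusted p 0.00935). BGIOSGA000821 (chromosome 1, 34701432 to 34704085) had 0.159, 0 and 0 CPM in pericarp and 35.8, 11.5 and 31.3 CPM in embryo (edgeR adjusted p 0.0110). BGIOSGA011765 (chromosome 3, 1849923 to 1853062) had 0.159, 0.459 and 0 CPM in pericarp and 87.0, 34.2 and 80.5 CPM in embryo (edgeR adjusted p 0.0119). For each of them all pericarp libraries were below all embryo libraries, and pericarp 1 held at most 1 count of each. Of all 19 calls 9 held whenever 1 library was left out, these 3 among them. The number ran from 9 without embryo 3 and 10 without embryo 4 to 23 without pericarp 3. Over all genes these fits called 129 of 17984, 108 of 17389 and 674 of 18367. Under limma voom 9 of the 19 kept their call. Among them were the 3 genes lower in pericarp, BGIOSGA007750 and BGIOSGA003497, while the call ended for BGIOSGA024601 (adjusted p 0.797). However, BGIOSGA003497 lost its call in 7 of the 12 edgeR fits with 1 library left out.

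**Figure D4:**
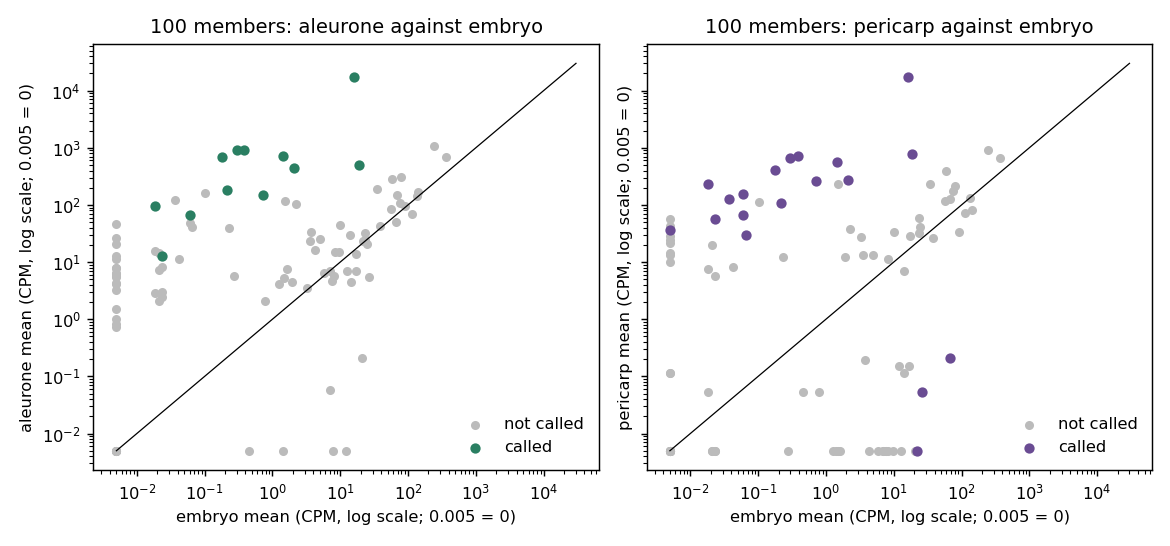
Mean levels of the 100 genes in CPM on log scales (0 drawn at 0.005), aleurone against embryo on the left and pericarp against embryo on the right, with the line of equal levels. Coloured points are the 12 and 19 genes called by edgeR; 3 called genes lie below the line in the right panel and none does in the left panel.

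In aleurone against pericarp 3 of the 100 genes were called higher and 0 lower, where 1.63% of all genes tested were called, 1.62% higher and 0.00612% lower, so the share of the 100 genes was near that of all genes. The median log2 fold change was 1.35 over the 100 genes, of which 54 passed the filter on the libraries of both tissues alone, and 1.15 over all genes. With library totals alone the medians were 0.54 and 0.23, and no gene of the table was called. In that fit 31 of the 100 genes had an unadjusted p below 0.05, against 4354 of all 16347 genes. In the fit with TMM factors 36 of the 100 genes did, against 5091 of all 16347. DESeq2 called 30 higher and 2 lower, where 4061 of all 16347 genes were called higher and 323 lower. The count was also 0 with the sequencing lane as a covariate and in a fit of only the 6 libraries of both tissues. It was 0 without endosperm 2, endosperm 4, aleurone 1, aleurone 3 or any single embryo library. In each of these fits no gene of the table was called. For the 100 genes the count was 5 without endosperm 3, 7 without aleurone 2 and 20 without pericarp 1. Over all genes these fits called 663 of 18349, 435 of 18289 and 860 of 18317. Pericarp 1 was the library with the highest share of counts in the set outside the endosperm. No call held in all fits with 1 library left out. The called genes were the 3 that were low in pericarp. BGIOSGA023998 had 19.9, 33.6 and 17.9 CPM in aleurone against no count in any pericarp library, at least 107-fold above the floor of 3 counts (edgeR adjusted p 0.0185). BGIOSGA011765 had 38.1, 81.2 and 32.8 CPM in aleurone and 0.159, 0.459 and 0 CPM in pericarp (edgeR adjusted p 0.0185). BGIOSGA000821 had 8.12, 5.27 and 3.15 CPM in aleurone and 0.159, 0 and 0 CPM in pericarp (edgeR adjusted p 0.0309). In each the aleurone libraries were all above the pericarp libraries.

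Levels in CPM by library totals varied between the 3 endosperm libraries themselves. The median coefficient of variation over these libraries was 38.0% for the 100 genes, with quartiles of 21.2% and 59.2%, and 50.04% for the 4341 genes with 50 counts in every endosperm library. It was smaller in the more abundant genes, at 18.2% in the 23 genes at 1000 CPM or more, 42.3% in the 50 genes from 100 to 1000 CPM and 60.5% in the 27 genes below 100 CPM. The chromosome 7 cluster had a median of 20.5%.

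By library totals endosperm 3, the library with the fewest counts, was the lowest of the 3 for 68 of the 100 genes, and endosperm 4 was the highest for 57. Among the 23 most abundant genes these numbers were 18 and 20. WAXY had the same order, at 18749 CPM in endosperm 3, 29339 in endosperm 2 and 37209 in endosperm 4. Without endosperm 3 the median coefficient of variation was 17.1%.

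By library totals BGIOSGA024593 had the steadiest level, with 1685, 1634 and 1695 CPM in endosperm libraries 2, 3 and 4 and a coefficient of variation of 1.96%. The TMM factors of these libraries were 0.415, 0.815 and 0.457, so its 3 levels lie farther apart on the TMM scale. BGIOSGA011196 (chromosome 3, 6933559 to 6937419) had the most variable one, with 37.3, 320 and 8.56 CPM and a coefficient of variation of 141%. It was highest in endosperm 3, where most of the set was lowest. BGIOSGA011765, low in pericarp as described above, had 743, 47.3 and 983 CPM, so endosperm 3 lay close to its embryo level of 67.2 ± 28.8 CPM (SD, n = 3 libraries).

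**Figure D5:**
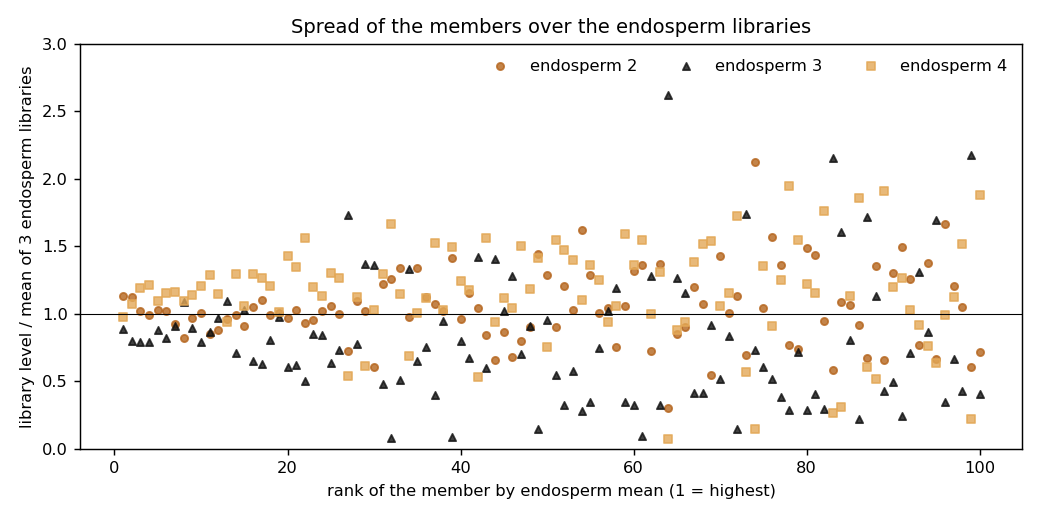
Level of each gene in endosperm libraries 2, 3 and 4 divided by its mean over the 3, against its rank by endosperm mean (1 is the highest). Points of the most abundant genes lie near 1, and the points spread toward the right, where the median coefficient of variation is 60.5% below 100 CPM against 18.2% at 1000 CPM or more; endosperm 3 is the lowest for 68 genes.

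The thresholds cut through a continuous range. Nearest to the fold threshold, BGIOSGA006533 at 5.07 and BGIOSGA012095 at 5.23 were inside, and BGIOSGA028246 at 4.98 (388 CPM) and BGIOSGA029493 at 4.90 (671 CPM) were outside. The lowest endosperm counts inside were 76 in BGIOSGA022269 and 95 in BGIOSGA023758, and BGIOSGA015483 with 37 and BGIOSGA003888 with 0 in their lowest library were outside. At the end of the ranking BGIOSGA022963 with 56.6 CPM and BGIOSGA002063 with 56.2 CPM were inside, and BGIOSGA008348 and BGIOSGA013750 with 55.4 CPM each were outside. At or above the last gene's level 1274 genes missed the fold threshold alone.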

How the data were processed

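Total read counts per gene were deposited by the authors as whole numbers, not normalized, per the file headers. CPM was computed here from the counts over all genes of the table. The table's other 36 columns of per-library values (RPKM, TPM and CPM by their headers) were not used, so exon lengths and a rank by TPM, which had been planned, were not computed; lengths are those of the gene region. No source used here names the aligner, the genome build or the use of strand, so reads of overlapping genes cannot be told apart. Columns were assigned to tissues by the header letters Al, Em and Pc, and Se went to endosperm as the 1 tissue left. Libraries carry the number in their column header, whereas the sample titles run from 1 to 3 in each tissue. The headers place aleurone 1, aleurone 2, embryo 2, pericarp 1 and endosperm 2 on lane 6 and the other libraries on lane 5.

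Counts were fitted with edgeR 4.0.16 in R 4.3.3 (filterByExpr with a minimum count of 10, TMM factors, glmQLFit and glmQLFTest, all 12 libraries, tissue as the only term). The procedure had been tested on simulated data whose dispersion was smaller than the 3.49 of these data. That test therefore does not show how the procedure performs at this spread. Fitted folds are on the TMM scale and levels are CPM by library totals. The standard error of a log2 fold change is its size over the square root of F. Alternatives were DESeq2 1.42.0, limma 3.58.1 with voom, other scalings, no filter, lane, a replicate block, 6 libraries alone and each library left out. With few counts, ratios of summed counts carry exact binomial 95% intervals. PCR reads are not independent molecules, so intervals and floors cover counting error only.

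The 100 genes, the marker lists and the tests were chosen with earlier results of these data known. Genes named are the 10 most abundant, the members of clusters of 3 or more, up to 3 called genes per direction with the largest log2 fold change in each contrast, the 2 genes on each side of each threshold, the extremes in spread, and the 2 most abundant of those at 0 outside the endosperm. BGIOSGA006533 among the called genes, the pairs, BGIOSGA024604 and the genes listed as keeping their calls were added after their values were seen. Of the marker lists, storage proteins, protein folding and endosperm regulators matched 0 genes by symbol. Late embryogenesis genes (2 of 6 matched) summed to 7.54 to 11.2 CPM in endosperm, 20.0 to 392 in aleurone, 0 to 63.6 in pericarp and 167 to 510 in embryo, and sucrose uptake genes (5 of 10) to 19.3 to 37.5, 376 to 1679, 1169 to 1459 and 45.5 to 121 CPM in the same order.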

Additional observations from a re-analysis of the deposited data

How the results depend on the processing

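No called gene changed its direction under any alternative run. Against 12, 3 and 19 genes called in aleurone against embryo, aleurone against pericarp and pericarp against embryo, DESeq2 called 48, 32 and 45. Over all 16347 genes DESeq2 called 1369, 4384 and 5216, against 73, 266 and 456 in the main fit. In aleurone against pericarp the count was 0 with library totals alone, with lane as a covariate and with only the 6 libraries of both tissues. In each of these fits no gene of the table was called. With limma voom the count was 6, where 1681 of all 16347 genes were called. Limma voom kept 3 of the 12, 2 of the 3 and 9 of the 19 calls. Leaving out each library gave 6 to 18, 0 to 20 and 9 to 23. Over all genes the same fits gave 33 to 108, 0 to 860 and 108 to 925. A replicate block on the header numbers gave 26, 7 and 25, against 159, 66 and 318 over all genes. However, same-numbered libraries did not deviate together (correlations of -0.0382 to 0.0263 in 13 pairs), so the numbers were not taken as pairs. The cause of these shifts was not tested.

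The endosperm share of 19.7% was 12.4% without the most abundant gene and WAXY, 23.6% and 6.01% for genes chosen at 3-fold and 10-fold, and 18.9% to 21.0% with 1 library left out. Of the 100 genes 49 were chosen again with TMM scaling, 47 with DESeq2 size factors, 59 at 3-fold, 46 at 10-fold and 83 to 99 with 1 library left out; all 100 still passed both thresholds with TMM scaling, where 351 genes did. Clusters held 15 genes instead of 24 at a gap of 50 kb, and the largest 5 instead of 8. Median ratios to the endosperm mean were 0.0658 in aleurone (0.0398 with TMM, 0.0355 with DESeq2 size factors), 0.0425 in pericarp (0.0139 with TMM, 0 to 0.0438 with 1 library left out, 0 being without pericarp 1) and 0.00193 in embryo (0.000687 with TMM, 0.000596 with size factors, 0.000491 to 0.00216 with 1 library left out). The median coefficient of variation by library totals was 17.1% to 48.6% with 1 endosperm library left out. The alternatives for ratios and spread were chosen after seeing the data. A rank by TPM was not run. Pericarp depth limits what a count of 0 can show there.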
